A study of Homo sapiens with 4 samples.

Results

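The replication-type histone genes are the clustered, multi-copy genes that encode the H1, H2A, H2B, H3 and H4 proteins of chromatin. They were taken here as the rows of the FPKM table whose symbol starts with HIST1H, HIST2H, HIST3H or HIST4H. Of 87 such rows, 11 with pseudogene symbols were left out, and 76 of the 58274 gene identifiers in the table remained. They hold 6 H1, 17 H2A, 22 H2B, 16 H3 and 15 H4 genes. HIST1H3D stands for 2 of them, because the symbol belongs to 2 gene identifiers, a short locus (ENSG00000197409) and a long locus (ENSG00000282988). The label holds for most but not all of them: 71 are annotated as protein-coding, HIST2H2BA, HIST2H2BB, HIST2H3DP1 and HIST3H2BA as pseudogenes, and HIST2H2BC was not matched to the annotation. The values are FPKM, in which a gene's fragments are divided by its transcript length in kilobases and scaled to 1000000 mapped fragments.

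The 4 RNA-seq libraries cover the hematopoietic differentiation of BC1, an induced pluripotent stem cell (iPSC) line of human origin, which was measured before differentiation and in 3 derived populations. They were undifferentiated BC1 cells, APLNR+ cells of day 2 (mesoderm), CD31+CD34+ cells of day 5 (hemogenic endothelial progenitors) and CD43+ cells of day 8 (hematopoietic progenitors). Differentiation was induced with activin A and BMP4, followed by VEGF and bFGF, so the 3 derived populations share the cell line and the first treatment, and the CD31+CD34+ and CD43+ cells also the second. Each population had 1 library and all come from 1 line. No difference below therefore has a replicate check or a p-value, and the intervals cover counting error only. In bulk RNA, more cells of a kind and more RNA per cell cannot be told apart.

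Histones package DNA into nucleosomes, which hold a core of H2A, H2B, H3 and H4, while H1 binds the linker DNA between them. The clustered genes are transcribed mainly while DNA is replicated, and most of their mRNAs end in a conserved stem-loop in place of a poly(A) tail. The stem-loop is bound by SLBP, which takes part in 3' end processing, translation and decay of these mRNAs. Some of the genes also make polyadenylated transcripts that run past the stem-loop, for instance in cells that leave the cycle. A library made from polyadenylated RNA would hold mainly such forms. The sources used here name an Illumina TruSeq RNA kit and do not say how mRNA was selected, so the values are levels of what the libraries captured and not of all histone mRNA.

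Depth was recovered from the steps between low FPKM values and ranged from 19670112 to 23582563 mapped fragments, as estimated by the fit. The marker genes followed the labels. The summed level of POU5F1, SOX2 and NANOG was 2192 FPKM in BC1 and 0.245 FPKM in CD43+, that of 4 mesoderm genes was highest in APLNR+ (1849 FPKM), that of 4 endothelial genes in CD31+CD34+ (646 FPKM) and that of SPN, GATA1, RUNX1 and ITGA2B in CD43+ (1401 FPKM). PTPRC and CD3E, markers of other leukocytes, and the neural NEUROD1 and PAX6 were under 1 FPKM in every library, and ALB, AFP and FOXA2 together were between 16.2 FPKM in CD43+ and 71.5 FPKM in APLNR+. COL1A1, COL1A2 and DCN together were at 391 FPKM in CD31+CD34+ and at 44.0 FPKM in CD43+, and the part of this difference between the populations in the histone values was not tested.

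The sequences below show the feature that sets these mRNAs apart. The stem-loop was searched on the transcript strand, as GG, any 2 bases, CTTTT, any base, AG, any 2 bases and CC, in the annotated transcripts of GENCODE release 29. It was found in 33 of the 75 histone genes with a transcript sequence, against 0.301% of all 19940 protein-coding genes, which include most of these histone genes. In 32 genes the annotated transcripts hold the coding part only. The search could not find the stem-loop in them, since it lies past the coding sequence, and it says nothing on whether they have one. Among them are HIST1H2BK and HIST1H1C, the genes with the highest FPKM. The 16 letters came in 5 forms: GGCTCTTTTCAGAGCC in 19 genes of H2A, H2B and H3, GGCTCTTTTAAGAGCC in 5 genes of H2B and H3, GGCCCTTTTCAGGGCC in 5 and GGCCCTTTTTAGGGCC in 3 genes of H4, and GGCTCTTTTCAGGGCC in HIST1H2AG. The sites of 6 genes described below are given with 5 bases on each side, 5' to 3' on the transcript strand, with the 16 letters in capitals. The sites lie, on GRCh38, at chr6:26124669-26124684 (plus strand, HIST1H2AC), chr6:27133515-27133530 (plus strand, HIST1H2AG), chr6:26123472-26123487 (minus strand, HIST1H2BC), chr1:149886188-149886203 (minus strand, HIST2H2BE), chr6:27810516-27810531 (plus strand, HIST1H3H) and chr6:26285131-26285146 (minus strand, HIST1H4H). All are past the coding sequence.
HIST1H2AC: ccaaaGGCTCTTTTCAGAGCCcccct
HIST1H2AG: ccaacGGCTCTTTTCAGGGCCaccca
HIST1H2BC: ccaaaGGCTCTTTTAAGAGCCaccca
HIST2H2BE: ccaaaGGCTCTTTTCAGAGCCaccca
HIST1H3H: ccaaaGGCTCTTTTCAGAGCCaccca
HIST1H4H: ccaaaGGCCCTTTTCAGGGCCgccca

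In the annotation, 22 of these 33 genes have a transcript that runs at least 200 bases past the stem-loop, by 1128 bases in HIST1H2AC, 1729 in HIST2H2BE and 1655 in HIST1H4H. Of the 22, 16 were measured and 13 of these were highest in CD43+. Of the other 11, 7 were measured and 5 were highest in CD43+, where 24% of all 17137 genes measured in the same way had their peak. The median change from CD31+CD34+ to CD43+ was 0.93 in the first group and 0.92 in the second on the log2(FPKM + 1) scale. Both medians are of genes with a stem-loop in the model, and the genes modelled as the coding part only are described further on.

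A gene was called measured at 1 FPKM or more in at least 1 library, which 47 of the 76 reached. H4 (11 of 15), H2A (13 of 17) and H2B (15 of 22) had most of their genes measured, H3 had 7 of 16 and H1 had 1 of 6. By position, 40 of 56 genes of the HIST1 clusters on chromosome 6 were measured, 5 of 15 of HIST2 and 1 of 4 of HIST3 on chromosome 1, and the single HIST4 gene on chromosome 12. Only 14 genes reached 5 FPKM and 8 reached 10 FPKM. Together the 76 genes made up between 0.0174% (APLNR+) and 0.0492% (CD43+) of all FPKM.

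The other 29 genes were at or near 0. Listed at 0 in all 4 libraries were 16 genes: HIST1H1A, HIST1H1T, HIST1H2AA, HIST1H2BA, HIST1H2BB, HIST1H3C, HIST1H4F, HIST2H2AA3, HIST2H2AB, HIST2H2BA, HIST2H3A, HIST2H3C, HIST2H3DP1, HIST2H4B, HIST3H2BA and HIST3H3. HIST1H1A, HIST1H1T, HIST1H2AA, HIST1H2BA and HIST3H3 are known mainly from thymus or testis. Another 13 were above 0 but under 1 FPKM: HIST1H1B, HIST1H1D, HIST1H1E, HIST1H2BM, HIST1H3A, HIST1H3G, HIST1H3I, HIST1H3J, HIST1H4K, HIST2H2AA4, HIST2H2BB, HIST2H4A and HIST3H2BB. HIST2H3A with HIST2H3C, HIST2H2AA3 with HIST2H2AA4 and HIST2H4A with HIST2H4B are near-identical copies that share at least 94.9% of their 100-base windows with another member, so how the authors' counting assigned their reads is uncertain. HIST1H3G shows how the unit weighs transcript length. Its model of 2411 bases held 31, 30, 10 and 13 fragments in the order of the populations, more than many measured genes, but its FPKM stayed between 0.199 and 0.732. At the other end, 1 fragment on the 297 bases of HIST1H4G in CD31+CD34+ was worth 1.23 FPKM.

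Of the 47 measured genes, 30 had their highest value in CD43+, 9 in APLNR+, 7 in BC1 and 1 in CD31+CD34+. Among all 17137 genes measured by the same rule, the peak was in CD43+ for 24%, in APLNR+ for 22.7%, in BC1 for 27.7% and in CD31+CD34+ for 25.5%. By class, the peak was in CD43+ for the H1 gene, for 8 of 13 H2A genes, 13 of 15 H2B genes, 5 of 7 H3 genes and 3 of 11 H4 genes. The 7 genes highest in BC1 were HIST2H2AC, HIST1H3E, HIST1H3F, HIST1H4C, HIST1H4H, HIST1H4J and HIST4H4, and the gene highest in CD31+CD34+ was HIST1H4G with its 1 fragment. In the HIST1 block between chr6:25726132-26285638, 14 of 24 measured genes were highest in CD43+, and in the block between chr6:27125897-27893843, 11 of 16 were.

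Many peaks outside CD43+ rested on few fragments, and so did some in CD43+, such as HIST1H4A (2 fragments) and HIST2H3D (3 fragments). Fragments were estimated for the 35 measured genes with 1 annotated transcript. Of their 122 values above 0, 111 lay within 0.1 of a whole number of fragments, and all were rounded. Of the 35, 6 never exceeded 3 fragments and 17 reached 10 in some library, the short locus of HIST1H3D by rounding from 9.77. Of these 17, 16 were highest in CD43+ and 1, HIST1H4J, in BC1, while of all 2019 genes chosen in the same way 25.8% were highest in CD43+, 32.6% in BC1, 20.8% in APLNR+ and 20.8% in CD31+CD34+. Both filters use the highest library, so a gene can enter through CD43+ alone. HIST1H2AI and the short locus of HIST1H3D reached 10 fragments only in CD43+. HIST1H2BF, HIST1H4E and the long locus of HIST1H3D reached 1 FPKM only in CD43+. For these genes the filter itself favoured a peak there. Of the 35, 10 were above each of the other 3 libraries in CD43+ beyond the 95% counting interval, against 11.9% of all 2573 single-transcript genes. Among the 46 measured genes with an estimate, the number was 14: HIST1H1C, HIST1H2AC, HIST1H2AE, HIST1H2AG, HIST1H2AI, HIST1H2BC, HIST1H2BD, HIST1H2BF, HIST1H2BG, HIST1H2BK, HIST1H3H, HIST1H4E, HIST2H2BE and the long locus of HIST1H3D.

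**Figure D1:**
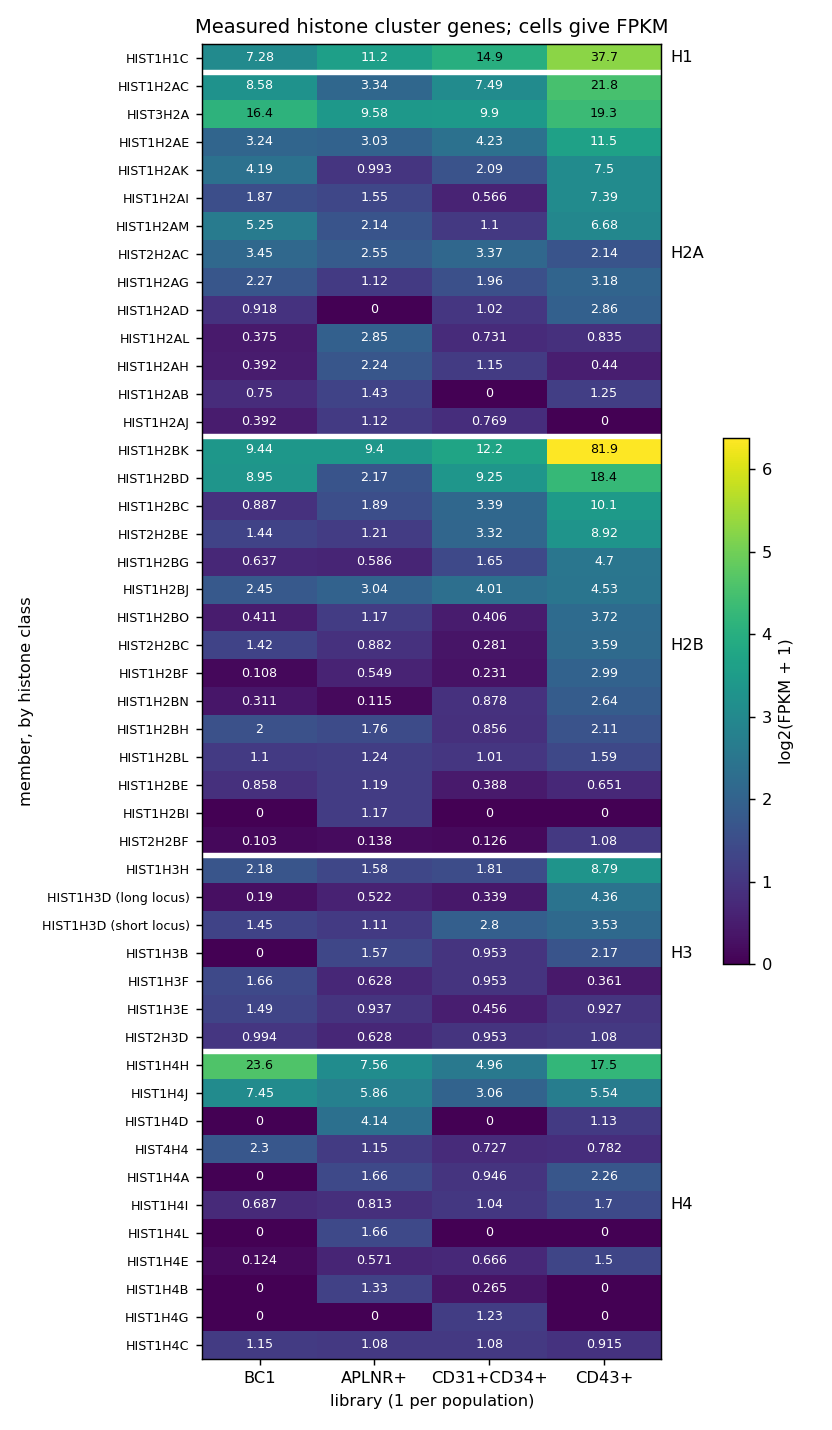
Heat map of the 47 measured histone genes (rows, grouped by class and ordered by their highest value) in the 4 libraries (columns). The colour is log2(FPKM + 1) and each cell gives the FPKM; 30 of the 47 rows are brightest in CD43+, and HIST1H2BK in CD43+ (81.9 FPKM) is the brightest cell.

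The steps of differentiation were compared next. From BC1 to APLNR+, 8 genes rose by at least 1 on the log2(FPKM + 1) scale and 4 fell, against 9.15% and 9.32% of all genes, and the median change was -0.04 against 0.00 over all genes. At the second step, to CD31+CD34+, 3 rose and 5 fell, against 13% and 11.4% of all genes, with a median of -0.01 against 0.01. At the last step, to CD43+, 18 rose and 1 fell, against 7.63% and 13.5%, and the median change was 0.75 against -0.08. Of the 47 genes, 38 had a change above 0 at this step and 7 below 0. From BC1 to CD43+, 18 rose and none fell, against 15.2% and 18.9%, with a median of 0.68 against -0.06. At the step into CD43+ most changes thus had one sign, while the earlier steps held changes of both signs. With a pseudocount of 0.1, the falls at the last step numbered 5.

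Calls beyond counting error were also most one-sided at the last step. Of the 35 single-transcript genes, 15 exceeded their CD31+CD34+ level in CD43+ beyond the 95% counting interval and 0 were lower, against 19.7% and 21.1% of all single-transcript genes. Between BC1 and CD43+, 13 were higher and 0 lower (24.2% and 30.8%). The first step had 4 higher and 3 lower (19.5% and 23.2%), and the second 4 higher and 1 lower (23.8% and 24.4%). These calls are more frequent for deeply covered genes, and the depth of the histone genes and of all genes was not matched.

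Summed over all 59 single-transcript genes, BC1 held 727 fragments, APLNR+ 673, CD31+CD34+ 837 and CD43+ 1983. Per 1000000 mapped fragments these were 37.0 (95% exact Poisson interval 34.3 to 39.7), 31.4 (29.03 to 33.8), 35.5 (33.1 to 38.0) and 91.9 (87.9 to 96.0). The first 3 libraries lay closer to each other than to CD43+, though the intervals of BC1 and APLNR+ did not overlap. Without HIST1H2BK, the highest gene by FPKM, the values were 35.8, 30.2, 34.2 and 83.7, so the difference did not rest on that gene alone. HIST2H2BE, HIST1H1C, HIST3H2A and HIST1H3H held more fragments in CD43+ (368, 292, 255 and 181, against 176) and were not left out.

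By class, summed FPKM in CD43+ was 2.47 times that in CD31+CD34+ for H1, 2.48 times for H2A, 3.84 for H2B, 2.14 for H3 and 2.28 for H4. In the order of the populations, H1 was at 8.04, 12.5, 15.8 and 39.1 FPKM, an increase at every step, which did not hold without HIST1H1C (0.757, 1.28, 0.875 and 1.35 FPKM). H2A was at 48.0, 32.3, 34.4 and 85.2 FPKM, H2B at 30.7, 26.6, 38.4 and 147 FPKM, and H3 at 9.03, 9.83, 10.1 and 21.5 FPKM. These 3 core classes changed less before CD43+ than into it. H4 was highest in BC1, with 36.3, 26.8, 14.0 and 31.8 FPKM, so its sum in CD43+ was 0.876 times that in BC1. This order rested on HIST1H4H: without it the H4 sums were 12.8, 19.2, 9.02 and 14.3 FPKM, highest in APLNR+, and the sum in CD43+ was 1.12 times that in BC1. The 11 H4 genes with 1 annotated transcript had 39, 66, 58 and 93 fragments, or 1.98, 3.08, 2.46 and 4.31 per 1000000 mapped fragments, lowest in BC1 and highest in CD43+. Single genes carried much of some sums: HIST1H1C made up 96.5% of H1 in CD43+, HIST1H2BK 55.6% of H2B, HIST1H4H 55.0% of H4, HIST1H3H 40.9% of H3 and HIST1H2AC 25.6% of H2A. These shares are of FPKM, which weighs short models more. In CD43+, HIST1H2BK (381 bases) held 176 of the 837 fragments of the single-transcript H2B genes, and HIST2H2BE (2194 bases) held 368. Without the highest gene of each class by FPKM, the ratio of CD43+ to CD31+CD34+ was 1.54 for H1, 2.49 for H2B, 1.54 for H3 and 1.59 for H4.

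**Figure D2:**
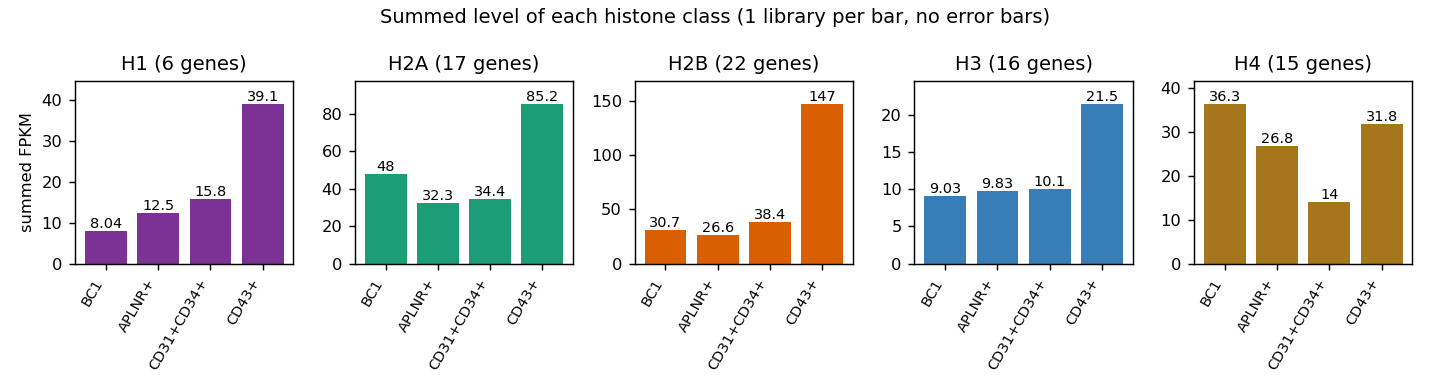
Bars give the summed FPKM of all genes of each histone class in the 4 libraries, with 1 library per bar and an axis of its own for each class. H1, H2A, H2B and H3 are highest in CD43+ (39.1, 85.2, 147 and 21.5 FPKM), and H4 is highest in BC1 (36.3 FPKM), which rests on HIST1H4H, since without it the H4 sum in BC1 is 12.8 FPKM and the highest is in APLNR+ (19.2 FPKM).

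Among the clustered H1 genes, the level came almost from HIST1H1C alone. HIST1H1C (H1.2, chr6:26055787-26056428, minus strand) was at 7.28, 11.2, 14.9 and 37.7 FPKM in the order of the populations, on 55, 91, 128 and 292 fragments. It was higher than in the population before by 1.54 times (95% counting interval 1.09 to 2.19), 1.33 times (1.01 to 1.76) and 2.53 times (2.05 to 3.14). Every step was thus upward beyond counting error in the deposited values, the last one most and the second only narrowly. Median-ratio scaling shifts the second step by -0.04 on the log2 scale, and the interval was not recomputed with it. The other clustered H1 genes above 0, HIST1H1B, HIST1H1D and HIST1H1E, stayed at 0.120 to 0.669 FPKM and at most 6 fragments. The linker histone genes H1F0 and H1FX, which are not in the clusters, were higher than HIST1H1C, at 46.3 to 331 FPKM and 117 to 388 FPKM.

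Among the H2A genes, HIST1H2AC and HIST3H2A had the highest levels. HIST1H2AC (chr6:26124145-26139116, plus strand) was at 8.58, 3.34, 7.49 and 21.8 FPKM in the order of the populations. With fragments from its shortest transcript, as for every gene with several, it fell 2.57-fold at the first step (95% counting interval 1.98 to 3.34), rose 2.24-fold at the second (1.73 to 2.91) and 2.91-fold at the last (2.48 to 3.43). HIST3H2A (chr1:228456979-228457873, minus strand) was at 16.4, 9.58, 9.90 and 19.3 FPKM, on 205, 130, 144 and 255 fragments. It had a similar dip, 1.71-fold down at the first step (1.36 to 2.14) and 1.95-fold up at the last (1.58 to 2.41), but BC1 and CD43+ did not differ beyond counting error (1.18-fold, 0.979 to 1.43).

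Several low H2A genes were raised in CD43+. HIST1H2AE was at 3.24, 3.03, 4.23 and 11.5 FPKM (16, 16, 23 and 56 fragments), a last change of 2.72-fold (1.65 to 4.64). HIST1H2AI was at 1.87, 1.55, 0.566 and 7.39 FPKM (9, 8, 3 and 35 fragments), or 13.1-fold (4.11 to 66.3). HIST1H2AI shares 57.7% of its 100-base windows with HIST1H2AJ, which was at 0 in CD43+, so how the authors' counting split their reads is uncertain. HIST1H2AM was at 5.25, 2.14, 1.10 and 6.68 FPKM (14, 6, 3 and 16 fragments), or 6.09-fold (1.74 to 32.6), and HIST1H2AK at 4.19, 0.993, 2.09 and 7.50 FPKM, or 3.59-fold (1.30 to 10.5). Both overlap exons of another histone gene, HIST1H3J and HIST1H2BN. The difference between BC1 and CD43+ lay within counting error for HIST1H2AM (1.27-fold, 0.582 to 2.82) and HIST1H2AK (1.79-fold, 0.815 to 4.27). HIST1H2AM and HIST1H3J lie on the same strand and 84.0% of the 100-base windows of HIST1H2AM are shared, so their reads cannot be told apart there. HIST1H2AK and HIST1H2BN lie on opposite strands, and whether the counting used strand is not given in the sources used here.

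Among the class sums, the ratio of CD43+ to CD31+CD34+ was highest for H2B, while that of CD43+ to BC1 was 4.80 for H2B and 4.86 for H1. HIST1H2BK (chr6:27146418-27146798, minus strand) was at 9.44, 9.40, 12.2 and 81.9 FPKM, on 23, 24, 30 and 176 fragments. Neither of the first 2 steps exceeded counting error, and CD43+ was 6.73-fold above CD31+CD34+ (4.55 to 10.3) and 8.68-fold above BC1 (5.60 to 14.0). It shared no 100-base window with another histone gene and overlapped no other annotated gene. HIST1H2BD was at 8.95, 2.17, 9.25 and 18.4 FPKM. It fell 4.13-fold at the first step (2.06 to 8.78), returned 4.27-fold at the second (2.18 to 9.07) and rose 1.99-fold at the last (1.38 to 2.89).

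HIST2H2BE and HIST1H2BG rose in 2 steps. HIST2H2BE (chr1:149884459-149886652, minus strand) was at 1.44, 1.21, 3.32 and 8.92 FPKM, on 55, 50, 150 and 368 fragments, with 2.75-fold at the second step (1.99 to 3.87) and 2.69-fold at the last (2.22 to 3.27). HIST1H2BG was at 0.637, 0.586, 1.65 and 4.70 FPKM, on 16, 16, 49 and 127 fragments, with 2.82-fold (1.58 to 5.31) and 2.84-fold (2.03 to 4.04). HIST1H2BC was at 0.887, 1.89, 3.39 and 10.1 FPKM, and its last change was 2.96-fold (1.83 to 5.07), while its earlier changes lay within counting error. Annotated transcripts of all genes with a stem-loop run past it, by 1729 bases in HIST2H2BE, 1059 in HIST1H2BG and 116 in HIST1H2BC. The last is thus in the group under 200 bases. HIST1H2BF was at 0.108, 0.549, 0.231 and 2.99 FPKM, on 2, 11, 5 and 59 fragments, and rose 13.0-fold at the last step (5.25 to 41.4). It therefore rose from a few fragments and in CD43+ was clear of the other libraries.

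HIST1H3H was the leading H3 gene. HIST1H3H (chr6:27810064-27811300, plus strand) was at 2.18, 1.58, 1.81 and 8.79 FPKM, on 42, 33, 41 and 181 fragments. Neither of the first 2 steps exceeded counting error, and the last change was 4.85-fold (3.44 to 6.99). The long locus of HIST1H3D, which overlaps HIST1H2AD and the short locus, was at 0.190, 0.522, 0.339 and 4.36 FPKM, a last change of 12.9-fold (5.64 to 44.2). The short locus was at 1.45, 1.11, 2.80 and 3.53 FPKM, and its last change of 1.26-fold lay within counting error (0.461 to 3.51). All of its 100-base windows are also in the long locus, so the assignment of reads between them is uncertain. HIST1H3B was at 0, 1.57, 0.953 and 2.17 FPKM, on at most 6 fragments.

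**Figure D3:**
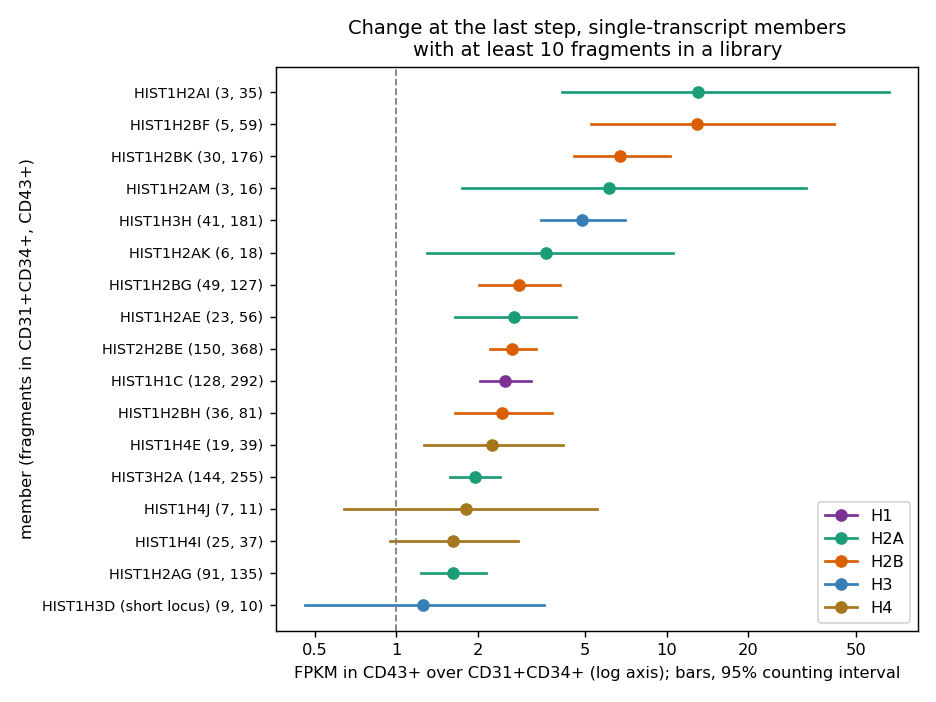
FPKM in CD43+ over CD31+CD34+ (log axis) for the 17 single-transcript histone genes with at least 10 fragments in a library, coloured by class, with 95% counting intervals and the fragments of both libraries after each name. All 17 points are above 1, and the intervals of HIST1H4J, HIST1H4I and the short locus of HIST1H3D include 1.

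The leading H4 gene was highest in BC1. HIST1H4H (chr6:26277609-26285638, minus strand) was at 23.6, 7.56, 4.96 and 17.5 FPKM. It fell 3.12-fold at the first step (1.89 to 5.30) and rose 3.53-fold at the last (1.88 to 6.93), and CD43+ was at 0.744 times BC1 (0.487 to 1.09). Its 4 annotated transcripts span 397 to 2163 bases, so its BC1 value stands for between 65 and 883 fragments, and these intervals use the smaller number. HIST1H4J was at 7.45, 5.86, 3.06 and 5.54 FPKM on 17, 14, 7 and 11 fragments, and no step exceeded counting error. It shares 77.7% of its 100-base windows with HIST1H4K, so its reads are uncertain.

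The remaining H4 genes were low. HIST4H4 (chr12:14767999-14771131, minus strand) was at 2.30, 1.15, 0.727 and 0.782 FPKM, and HIST1H4D at 0, 4.14, 0 and 1.13 FPKM on 0, 5, 0 and 1 fragments. HIST1H4E was at 0.124, 0.571, 0.666 and 1.50 FPKM, higher in each population than in the one before, on 3, 15, 19 and 39 fragments. Its changes were 4.60-fold at the first step (1.30 to 24.8) and 2.25-fold at the last (1.27 to 4.13). Of the 8 genes past the fold from BC1 to APLNR+, 4 were H4 genes (HIST1H4A, HIST1H4B, HIST1H4D and HIST1H4L), each on 0 fragments in BC1 and at most 5 in APLNR+, within counting error.

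Many H2A and H2B genes lie head to head, most of them with a shared stretch of sequence between them. There were 12 such pairs, 9 of them with both genes measured, and in 7 of the 9 both genes had more FPKM in CD43+ than in the CD31+CD34+ library. Of the 47 measured histone genes, 38 were above 0 at this step, and the median change over all genes was -0.08. HIST1H2AK and HIST1H2BN overlap in the annotation, so how their reads were split is uncertain. Both genes rose by at least 1 in 3 pairs (HIST1H2AC with HIST1H2BC, HIST1H2AE with HIST1H2BG, HIST1H2AM with HIST1H2BO), only the H2B gene in 3, only the H2A gene in 2 and neither in 1. The partners were most unequal at HIST1H2BK. Its neighbour HIST1H2AH, 330 bases away, was at 0.392, 2.24, 1.15 and 0.440 FPKM, on 1, 6, 3 and 1 fragments, while HIST1H2BK rose 6.73-fold. HIST2H2BE likewise rose by 1.20 on the log2 scale while its neighbour HIST2H2AC was at 3.37 FPKM before and 2.14 FPKM after, on 9 and 5 fragments.

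**Figure D4:**
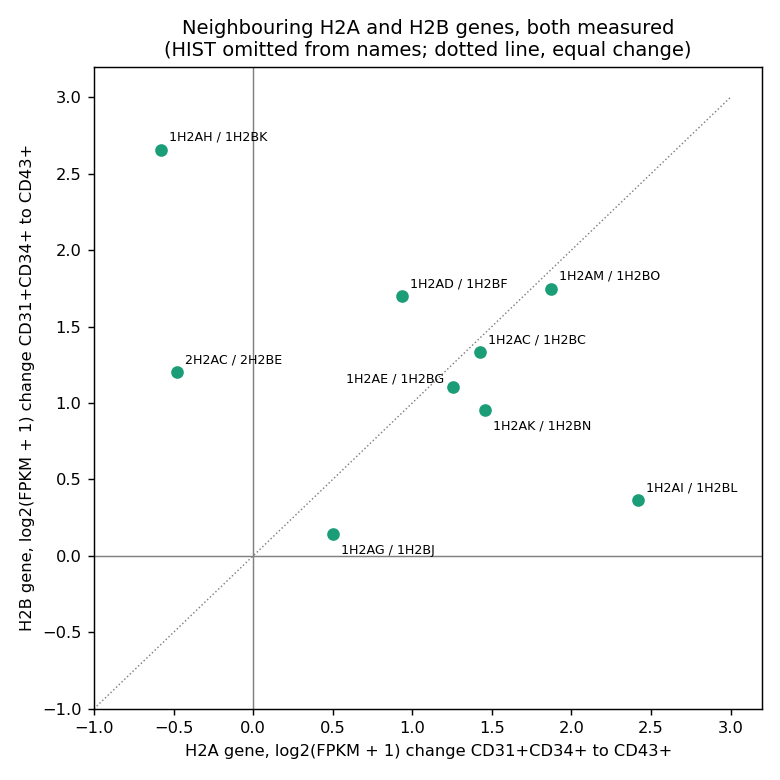
Change in log2(FPKM + 1) from CD31+CD34+ to CD43+ of the H2A gene (horizontal) and the H2B gene (vertical) of the 9 head-to-head pairs with both genes measured, 1 point per pair. In 7 pairs both changes are above 0; HIST1H2AH with HIST1H2BK and HIST2H2AC with HIST2H2BE lie left of 0.

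Promoter windows from RefSeq (GRCh38.p14, 250 bases before to 50 after the gene start) were matched for 59 of the 76 genes. They were searched on both strands for CCAAT, a box bound by NF-Y, for TATAAA, the TATA box, and for ATTTGCAT, the octamer bound by POU2F1 (OCT1). CCAAT was in 83.1% of them against 35.7% of all 27305 promoters, TATAAA in 67.8% against 12% and ATTTGCAT in 33.9% against 1.8%. By class, CCAAT was in all 46 windows of H1, H2A, H2B and H3 and in 3 of 13 of H4. ATTTGCAT was in 11 of 16 of H2A, in 9 of 13 of H2B and in none of H1, H3 and H4. Windows of head-to-head H2A and H2B genes can cover the same DNA, such as HIST1H2AG (chr6:27132793-27133092) and HIST1H2BJ (chr6:27132746-27133045). A site there is counted for both genes, since both strands were searched, so these counts are not all of separate sites. Among measured genes, CCAAT was in 22 of 23 windows of those highest in CD43+ and in 7 of 13 of the others, and the windows without it were all of H4 genes. TATAAA was in 14 of the 23 and in 11 of the 13, and ATTTGCAT in 11 of the 23 and in 4 of the 13. The windows of HIST1H2BK (chr6:27146809-27147108, minus strand), HIST1H1C (chr6:26056421-26056720, minus strand) and HIST1H4H (chr6:26285485-26285784, minus strand) are shown because these genes led their classes, the first 2 highest in CD43+ and the third in BC1. They read 5' to 3' on the gene's strand, with matches to any of the 3 motifs on either strand in capitals. The first capitals of HIST1H2BK are 2 overlapping TATAAA matches, 1 on each strand, and the window of HIST1H4H has no match to these letters.
HIST1H2BK: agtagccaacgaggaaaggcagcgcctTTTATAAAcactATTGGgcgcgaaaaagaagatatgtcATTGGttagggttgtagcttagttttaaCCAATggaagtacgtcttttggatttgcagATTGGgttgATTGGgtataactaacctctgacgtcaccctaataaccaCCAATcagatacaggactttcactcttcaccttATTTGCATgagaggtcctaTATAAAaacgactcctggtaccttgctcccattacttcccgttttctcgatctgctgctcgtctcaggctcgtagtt
HIST1H1C: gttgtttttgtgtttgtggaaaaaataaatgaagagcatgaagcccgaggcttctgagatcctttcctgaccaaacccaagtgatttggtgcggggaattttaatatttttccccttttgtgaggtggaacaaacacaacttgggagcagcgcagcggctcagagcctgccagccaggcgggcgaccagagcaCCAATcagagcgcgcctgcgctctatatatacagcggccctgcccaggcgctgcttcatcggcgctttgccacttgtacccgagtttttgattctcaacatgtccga
HIST1H4H: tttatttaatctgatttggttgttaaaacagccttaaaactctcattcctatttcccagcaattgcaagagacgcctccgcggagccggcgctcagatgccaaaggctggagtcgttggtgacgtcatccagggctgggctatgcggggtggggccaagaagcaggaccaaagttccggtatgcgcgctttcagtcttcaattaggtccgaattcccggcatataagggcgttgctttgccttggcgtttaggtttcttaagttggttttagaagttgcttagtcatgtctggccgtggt

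Other genes of histone supply and of the cell cycle are described from 5 lists. Most replacement histones are made outside replication from polyadenylated mRNAs, and 11 of the 12 listed were measured. Their summed level was 2855, 3557, 3349 and 3270 FPKM, which was 21.6, 33.0, 29.7 and 10.1 times that of the clustered genes. At the last step 1 of the 11 rose by at least 1 (H3F3A, encoding H3.3, from 352 to 724 FPKM). The 2 that fell were CENPA, the centromeric H3, from 22.5 to 6.83 FPKM and H1FX, a linker histone, from 388 to 179 FPKM. Over all genes 7.63% rose and 13.5% fell at this step, so both counts are near those shares. The median change was -0.50, against -0.08 over all genes. The clustered genes and the replacement genes thus had medians of opposite sign at this step.

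Among 17 genes of histone gene transcription and pre-mRNA processing, 0 passed the fold in either direction at the last step, and the median change was 0.09. SLBP, the stem-loop binding protein, was at 22.8, 30.8, 26.4 and 44.7 FPKM, a last change of 0.74 on the log2(FPKM + 1) scale. NPAT, the coactivator of histone gene transcription, was at 3.26, 3.33, 2.91 and 3.60 FPKM. Of 14 histone chaperones, 0 rose and 1 fell (HJURP, which loads CENPA, from 43.5 to 19.6 FPKM), with a median of 0.08. Over all genes 7.63% rose and 13.5% fell at this step.

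The 20 genes of DNA replication and S phase had 17 changes above 0 and 3 below 0 at the last step. Their median was 0.53, and only CDC45 rose by at least 1 (19.8 to 41.6 FPKM), against 7.63% of all genes. MCM4, a helicase subunit, was at 302, 225, 122 and 238 FPKM, and PCNA, the sliding clamp, at 179, 115, 113 and 177 FPKM. MCM4 was thus lowest in CD31+CD34+ and back near its APLNR+ level in CD43+. PCNA was about as low in APLNR+ as in CD31+CD34+ and back near its BC1 level in CD43+. The median of the list from BC1 to CD43+ was -0.25, against 0.68 for the histone genes. The 16 mitosis genes had a median of -0.99 at the last step, and 7 fell by at least 1, against 13.5% of all genes. Among the 7 were CCNB1 (94.9 to 39.3 FPKM), MKI67 (40.2 to 15.0 FPKM) and TOP2A (89.9 to 37.8 FPKM). The part of cell cycle composition in the histone values was not tested.

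**Figure D5:**
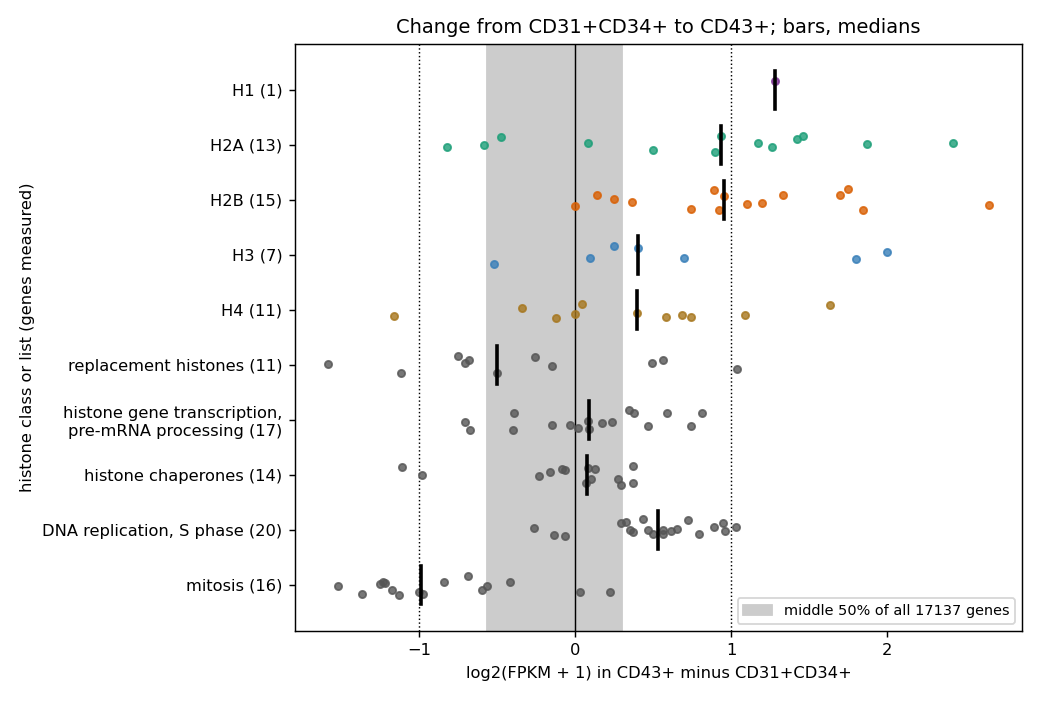
Change in log2(FPKM + 1) from CD31+CD34+ to CD43+ for the measured genes of each histone class and of 5 lists, 1 point per gene, with black bars at the medians, dotted lines at changes of 1 and -1 and the middle 50% of all genes in grey. The medians are 1.28 for H1, 0.93 for H2A, 0.96 for H2B, 0.40 for H3, 0.40 for H4, 0.53 for S phase and -0.99 for mitosis.

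Levels were also set beside the annotated model. The 32 genes modelled as the coding part only had 20 measured genes, 4 of them at 5 FPKM or more, and a median last change of 0.47. The 39 protein-coding genes modelled beyond the coding part had 26 measured, 10 at 5 FPKM or more, and a median last change of 0.89. Reads that fall outside a coding-only model are not counted for it, so levels are compared here across libraries and only loosely between genes.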

How the data were processed

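RNA was sequenced from 1 library each of undifferentiated BC1, APLNR+ (day 2), CD31+CD34+ (day 5) and CD43+ (day 8) cells. The authors deposited gene-level FPKM values. The submitters' processing notes name BWA, Bowtie, RSEM and hg19 with no role or version, but 55570 of 55572 comparable rows had the start and end of GENCODE release 29 on GRCh38, and GRCh38 is used here, with positions that start at 1. Strand use is not given in the sources used here.

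Rows of one gene ID were summed, values were analysed as log2(FPKM + 1), which understates the change of low genes, and those that reached 1 FPKM in any library were kept (17137 genes). With 1 library per population no test was run. A change of at least 1 was called a rise or a fall.

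Mapped fragments and the fragment length distribution were fitted per library, so that low FPKM values of genes with 1 annotated transcript gave whole fragments (within 0.1 for 92.1% to 93.0% of the low values used). Genes with several transcripts got fragments from the shortest one. Fold intervals are exact Clopper-Pearson 95% intervals of these fragments and sums have exact Poisson intervals, all for counting error only, and not for variation between cultures or sorts. The procedure was tested on simulated data.

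The members and lists were chosen with earlier results of these data known. Named are the 4 highest genes of each class, the 5 largest rises and falls per step at 5 FPKM or more, the HIST3 and HIST4 genes and the 3 largest changes of each other list per step, plus HIST1H2AE, HIST1H2AI, HIST1H2BF, HIST1H2BG, HIST1H3G, HIST1H4E, HIST1H4G, the head-to-head neighbours, NPAT and PCNA, which were chosen after their values were seen. Not every list gene the rule allows is described. Alternatives were another filter, pseudocount, threshold or scaling, and subsets of genes. Python 3.11.15, numpy 2.4.6, pandas 2.3.3, scipy 1.17.1 and matplotlib 3.10.9 were used.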

Additional observations from a re-analysis of the deposited data

Results flagged for a closer look

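HIST1H2APS4, a pseudogene of the H2A family that the symbol rule left out, was at 3.18 FPKM in APLNR+, against 0.360 FPKM in undifferentiated BC1, 1.02 in CD31+CD34+ and 0.233 in CD43+. It is listed here because it lies outside the comparisons and was above its level in the untreated cells. The other 10 rows left out were under 1 FPKM in every library. With 1 library per population, groups were too small to look for outliers.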

How the results depend on the processing

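Depth limits the low genes: many hold under 10 fragments, the spread between cultures is unknown, and leaving out a replicate was not possible with 1 library per population. No paired analysis was possible because the result comes from no test. Of 117 values recomputed for 22 results, 65 stayed within 1.5 times the reported count, or within its interval for a median or ratio, 52 moved. The median of the second step took the other sign under 2 settings, 0.36 with the filter of 5 FPKM and 0.17 with at least 10 fragments, against -0.01. Most moves came from counting fewer genes.

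With a filter of 5 FPKM, 14 genes were measured, with peaks in BC1 for 2, APLNR+ 0, CD31+CD34+ 0 and CD43+ 12. From BC1 to APLNR+, 0 rose and 4 fell, against 8 and 4 as reported, and the median change was -0.30. At the second step 0 fell and 1 rose, against 5 and 3 as reported, so the balance of calls turned at both earlier steps. From CD31+CD34+ to CD43+, 11 rose, 0 fell and the median was 1.38. From BC1 to CD43+, 8 rose and the median was 1.40. With no filter, 11 genes peaked in BC1 and 3 in CD31+CD34+. Among genes with a transcript of at least 1000 bases, 3, 1, 0 and 12 peaked in BC1, APLNR+, CD31+CD34+ and CD43+.

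With a pseudocount of 0.1, which weighs low genes more, 14 rose and 7 fell at the first step, 9 rose and 10 fell at the second, 5 fell at the last with a median of 1.11, and 3 fell from BC1 to CD43+. With a threshold of 2, 1 rose and 0 fell at the first step, 0 rose and 1 fell at the second, 3 rose and 0 fell at the last, and 5 rose from BC1 to CD43+. Median-ratio scaling, which shifts the last step by 0.10, moved no result. Without the highest gene, the ratio of CD43+ to CD31+CD34+ was 1.54 for H1, 2.49 for H2B, 1.54 for H3 and 1.59 for H4. The H4 sum then peaked in APLNR+ instead of BC1.

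Chosen after seeing the data were the genes with at least 10 fragments, where 1, 0, 0 and 16 peaked in BC1, APLNR+, CD31+CD34+ and CD43+. There 0 rose and 1 fell at the first step, 0 rose and 0 fell at the second, 10 rose and 0 fell at the last with a median of 1.20, and 9 rose from BC1 to CD43+ with a median of 1.15. Some of the genes with at least 10 fragments passed a filter only through CD43+. Leaving out genes that overlap another gene, also chosen afterwards, moved no result.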
